A study of Arabidopsis thaliana with 12 samples.

Results

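The class A heat shock factors of Arabidopsis other than the HSFA1 proteins and HSFA9 were followed through 12 RNA-seq libraries. They are the 10 genes HSFA2, HSFA3, HSFA4A, HSFA4C, HSFA5, HSFA6A, HSFA6B, HSFA7A, HSFA7B and HSFA8, taken by locus identifier from the 32833 genes of the deposited table. The rule used no measured value, but it was set with earlier results of these data known. Each library was made from whole 7-day-old Arabidopsis thaliana seedlings. There were 4 groups of 3: Col-0 wild type (wt) and the line labelled hop1 hop2 hop3, each under control conditions or moved to 38 °C for the last 3 h. HOP proteins are co-chaperones that connect HSP70 with HSP90.

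Heat shock factors are transcription factors that bind heat shock elements, inverted repeats of the letters GAA, in front of chaperone genes. Class A members carry an activation domain. In Arabidopsis the HSFA1 proteins start the response, and genes such as HSFA2, HSFA7A and HSFA7B lie downstream of them, while HSFA3 is switched on through DREB2A and its relatives. HSFA2 is known for extending acquired thermotolerance.

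Depth ran from 26.1 to 38.7 M fragments per library. HOP1 did not fall in the line labelled hop1 hop2 hop3 (log2 fold change -0.12 at control and 0.76 under heat), HOP3 was lower in both conditions (-4.43 and -6.44), and HOP2 was lower by -6.10 at control but by only -0.77 under heat. For that reason hop means the libraries so labelled, and no direction below rests on a verified loss of HOP1. Whether the replicates are separate cultures is not stated in the labels. The p-values therefore speak only of the spread among these libraries, part of which may be technical. Levels of RNA per seedling cannot be split into the number of cells of a type and the RNA per cell. Green tissue markers (RBCS1A, CAB1, LHCB2.1) summed to between 957696 and 1667130 normalized counts, where a normalized count is the number of fragments divided by 1 size factor per library. The sum ran from 957696 to 1109037 in wt control and 1031655 to 1369270 in wt heat. It ran from 1040762 to 1252886 in hop control and 1319681 to 1667130 in hop heat, so that hop heat overlapped neither control group. That separation rests on the size factors. Before scaling, summed fragments in hop went from 2058072 at control to 1433595 under heat for RBCS1A. They went from 2276462 to 1835050 for CAB1 and from 425765 to 289012 for LHCB2.1.

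The promoter sequences of 4 members are printed because they belong to the members with the largest heat responses: 3 of them hold a heat shock element of 3 units and the fourth, HSFA3, holds none. Each is the 300 bases before the annotated gene start, 5′ to 3′, from RefSeq on build TAIR10.1. The build of the authors' counting was not given in the sources used here. Capitals mark letters of GAANNTTC or TTCNNGAA (2 units), searched on both strands. A 3-unit element is 2 of these overlapping by 1 unit, so that GAA, TTC and GAA, or TTC, GAA and TTC, follow each other with 2 bases between them.
HSFA2 promoter, chr2:11135324-11135623, plus strand: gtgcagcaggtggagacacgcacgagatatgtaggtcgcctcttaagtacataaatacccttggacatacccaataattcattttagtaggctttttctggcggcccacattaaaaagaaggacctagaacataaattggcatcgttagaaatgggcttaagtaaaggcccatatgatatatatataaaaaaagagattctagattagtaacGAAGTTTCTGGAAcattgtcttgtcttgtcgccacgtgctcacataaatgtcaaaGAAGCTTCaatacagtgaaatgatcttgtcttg
HSFA7A promoter, chr3:19264841-19265140, plus strand: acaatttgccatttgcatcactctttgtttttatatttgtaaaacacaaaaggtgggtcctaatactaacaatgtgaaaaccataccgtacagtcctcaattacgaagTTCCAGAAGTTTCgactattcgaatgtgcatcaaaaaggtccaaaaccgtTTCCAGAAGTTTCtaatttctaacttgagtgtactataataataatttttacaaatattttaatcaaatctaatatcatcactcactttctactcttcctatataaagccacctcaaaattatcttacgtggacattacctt
HSFA7B promoter, chr3:23398936-23399235, plus strand: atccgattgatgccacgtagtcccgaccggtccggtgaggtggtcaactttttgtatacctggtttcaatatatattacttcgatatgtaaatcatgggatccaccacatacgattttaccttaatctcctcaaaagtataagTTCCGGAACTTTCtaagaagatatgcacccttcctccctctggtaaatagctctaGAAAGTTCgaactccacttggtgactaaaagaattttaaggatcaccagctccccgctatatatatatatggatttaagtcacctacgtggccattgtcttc
HSFA3 promoter, chr5:974327-974626, minus strand: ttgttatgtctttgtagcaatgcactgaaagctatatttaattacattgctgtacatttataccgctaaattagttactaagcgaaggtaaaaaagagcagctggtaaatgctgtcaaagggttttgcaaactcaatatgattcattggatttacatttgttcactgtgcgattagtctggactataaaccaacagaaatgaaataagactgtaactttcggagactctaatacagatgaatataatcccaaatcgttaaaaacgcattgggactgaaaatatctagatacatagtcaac

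A 3-unit element stood at -88 to -76 from the gene start in HSFA2, at -157 to -145 in HSFA7B, and at both -192 to -180 and -142 to -130 in HSFA7A. It occurred in 133 of 27443 promoters of the same length, or 0.485%. A 2-unit element was far more common, in 19.3% of promoters, and apart from those inside 3-unit elements it appeared in HSFA2 (-33 to -26), HSFA7B (-102 to -95) and HSFA4A (-173 to -166). An abscisic acid element (ACGTGGC or ACGTGTC), held by 7.01% of promoters, was found in HSFA2, HSFA6A and HSFA7B. The dehydration-responsive element (ACCGAC or GCCGAC), held by 8.24% of promoters, was in none of the 10, and HSFA3, HSFA4C, HSFA5, HSFA6B and HSFA8 held none of the motifs. A match describes the letters of this window and is no evidence of binding.

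**Figure D1:**
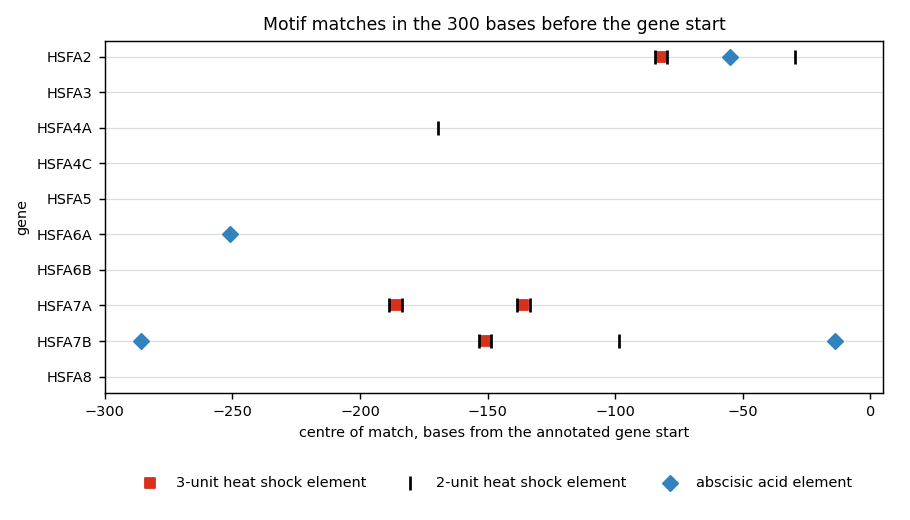
Motif matches in the 300 bases before the annotated start of each of the 10 genes, by distance in bases from the start; red squares are 3-unit and black ticks 2-unit heat shock elements, blue diamonds abscisic acid elements. The 3-unit elements are in HSFA2, HSFA7A and HSFA7B.

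All 10 genes passed the filter on low values (at least 1 normalized count in at least 3 libraries). In wt, 6 of the 10 rose under heat, 2 fell and 2 did not pass the test, at a Benjamini-Hochberg adjusted p under 0.05 in limma over 23827 genes. Over all genes tested 69% were called in the same comparison, 33.2% higher and 35.8% lower, so that a call by itself is common here. Control and heat libraries did not overlap for 72.4% of all genes in wt and 70.4% in hop. The median log2 fold change of the 10 was 1.23 against -0.08 over all genes. In hop, 7 of the 10 rose, 2 fell and 1 did not pass, where 68.5% of all genes were called, 33.3% higher and 35.2% lower, and the medians were 1.66 and -0.06. These fold changes are on the log2(normalized count + 1) scale, which understates the change of low genes.

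HSFA2 (AT2G26150) was nearly silent at control and became the most abundant of the 10 under heat. Its normalized counts were 7.30, 1.23 and 2.86 in wt control and 63187, 63306 and 55914 in wt heat. In hop they were 11.95, 11.3 and 7.15 at control and 80375, 83886 and 49930 under heat. Control and heat libraries lay far apart in both genotypes. The log2 fold change was 13.84 ± 0.42 (SE) in wt (adjusted p = 1.38e-09, limma) and 12.64 ± 0.42 in hop (adjusted p = 2.64e-09, limma). The control level rests on 14 fragments in wt and 41 in hop, so the ratio of heat to control is loose: 17839 in wt (95% exact interval 10632 to 32631) and 6955 in hop (5127 to 9693), intervals that cover counting error only.

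HSFA7B (AT3G63350), another factor downstream of HSFA1, also rose from a few fragments, to a lower level. Its normalized counts were 2.74, 1.23 and 0.716 in wt control and 3628, 3332 and 2922 in wt heat. In hop they were 2.56, 1.41 and 1.30 at control and 4235, 4597 and 2792 under heat. No control library came near a heat library. Heat raised it by 10.40 ± 0.27 on the log2 scale in wt (adjusted p = 6.10e-14, limma) and 10.45 ± 0.27 in hop (adjusted p = 5.32e-14, limma). With 6 and 7 fragments at control, the ratio of heat to control was 2260 in wt (95% exact interval 1038 to 6160) and 2214 in hop (1074 to 5509).

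HSFA7A (AT3G51910), its close relative, started from a high level. It had 261, 245 and 249 normalized counts in wt control and 2145, 1906 and 2196 in wt heat. In hop it had 220, 221 and 266 at control and 2204, 2583 and 1816 under heat. The groups did not overlap, and the mean rose 8.28-fold in wt and 9.33-fold in hop. On the log2 scale the rise was 3.04 ± 0.12 in wt (adjusted p = 5.96e-12, limma) and 3.21 ± 0.12 in hop (adjusted p = 2.93e-12, limma).

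HSFA3 (AT5G03720), the factor reached through DREB2 proteins, rose from a moderate level. Its normalized counts were 90.3, 87.9 and 78.8 in wt control and 2227, 2336 and 2455 in wt heat. In hop they were 85.4, 84.2 and 78.6 at control and 1521, 1603 and 2283 under heat. Control libraries were tight in both genotypes, and in hop heat replicate 3 stood above the other 2. The log2 fold change was 4.76 ± 0.13 in wt (adjusted p = 8.56e-14, limma) and 4.41 ± 0.13 in hop (adjusted p = 1.91e-13, limma). HSFA3 overlaps AT5G03710 on the opposite strand by 486 bp, and that gene held mean normalized counts of only 3.61, 9.91, 6.09 and 11.6 in wt control, wt heat, hop control and hop heat.

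HSFA6B (AT3G22830), a factor known from abscisic acid signalling, rose from a few fragments. Its normalized counts were 4.56, 3.07 and 2.86 in wt control, 19.8, 9.93 and 18.5 in wt heat, 5.98, 1.41 and 2.60 in hop control and 30.5, 29.02 and 20.6 in hop heat. Control and heat did not overlap in either genotype. In log2 terms the rise was 1.89 ± 0.41 in wt (adjusted p = 0.000758, limma) and 2.80 ± 0.41 in hop (adjusted p = 1.90e-05, limma). The ratio of heat to control was 4.86 in wt (95% exact interval 2.55 to 9.78, from 14 and 35 fragments) and 8.28 in hop (4.51 to 16.4, from 13 and 63).

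HSFA6A (AT5G43840), the other HSFA6 gene, did not pass the test in either genotype. Its normalized counts were 5.48, 16.6 and 15.8 in wt control, 7.93, 3.31 and 13.2 in wt heat, 17.1, 14.9 and 24.7 in hop control and 11.9, 11.6 and 16.5 in hop heat. The groups overlapped in both genotypes. The log2 fold change was -0.60 ± 0.46 in wt (adjusted p = 0.253, limma) and -0.46 ± 0.46 in hop (adjusted p = 0.390, limma). It was called lower in wt without wt control replicate 1, the lowest control library (-1.07, adjusted p = 0.0458, limma; the adjusted p ran from 0.0166 to 0.861 over the alternatives). Scaled by library size alone in edgeR it was called lower in both genotypes, at -1.50 in wt and -1.39 in hop.

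HSFA8 (AT1G67970) fell. Its normalized counts were 114, 119 and 138 in wt control and 11.9, 26.47 and 23.7 in wt heat, and 92.2, 139 and 142 in hop control and 27.8, 26.1 and 25.8 in hop heat. All heat libraries lay under all control libraries. The control mean was 5.97 times the heat mean in wt and 4.69 times in hop, with log2 fold changes of -2.59 ± 0.26 (adjusted p = 3.37e-07, limma) and -2.16 ± 0.26 (adjusted p = 2.45e-06, limma).

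HSFA5 (AT4G13980), which is known to bind and repress HSFA4 proteins, fell less. It had 360, 356 and 389 normalized counts in wt control, 201, 169 and 253 in wt heat, 360, 381 and 435 in hop control and 174, 194 and 245 in hop heat. Control and heat did not overlap. The control mean was 1.77 times the heat mean in wt and 1.92 times in hop, with log2 fold changes of -0.84 ± 0.15 (adjusted p = 0.000149, limma) and -0.95 ± 0.15 (adjusted p = 4.79e-05, limma).

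HSFA4A (AT4G18880), a substrate of MAP kinases in stress signalling, and HSFA4C (AT5G45710) moved little. HSFA4A had 247, 207 and 215 normalized counts in wt control, 264, 233 and 297 in wt heat, 240, 177 and 202 in hop control and 317, 267 and 305 in hop heat. HSFA4C had 251, 259 and 250 in wt control, 394, 304 and 440 in wt heat, 234, 247 and 278 in hop control and 297, 312 and 353 in hop heat. Control and heat overlapped only for HSFA4A in wt. For HSFA4A the log2 fold change was 0.24 ± 0.14 in wt (adjusted p = 0.124, limma) and 0.53 ± 0.14 in hop (adjusted p = 0.00289, limma). For HSFA4C it was 0.56 ± 0.13 in wt (adjusted p = 0.00129, limma) and 0.34 ± 0.13 in hop (adjusted p = 0.0312, limma). These small rises depend on the scale: scaled by library size alone in edgeR, the median of all genes moved from -0.08 to -0.94 in wt and from -0.06 to -0.97 in hop, the share of called genes that were higher fell from 48.1% to 17.9% and from 48.6% to 17.4%, the members' calls became 5 higher and 4 lower in wt and 5 and 5 in hop, and HSFA4A and HSFA4C turned to negative values, -0.61 and -0.39 for HSFA4A and -0.28 and -0.58 for HSFA4C. Relative to that shifted median they stood at 0.32 and 0.58, and at 0.66 and 0.39. The hop call of HSFA4C was also lost with edgeR and TMM (0.25, adjusted p = 0.117). In limma it was lost without hop control replicate 1 (0.29, adjusted p = 0.103), hop control replicate 2 (0.32, 0.0778) or hop heat replicate 3 (0.27, 0.110). It was lost as well without the 4 libraries numbered 1 (0.34, adjusted p = 0.128), 2 (0.34, 0.0700) or 3 (0.34, 0.0594), in fits of 8 libraries.

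**Figure D2:**
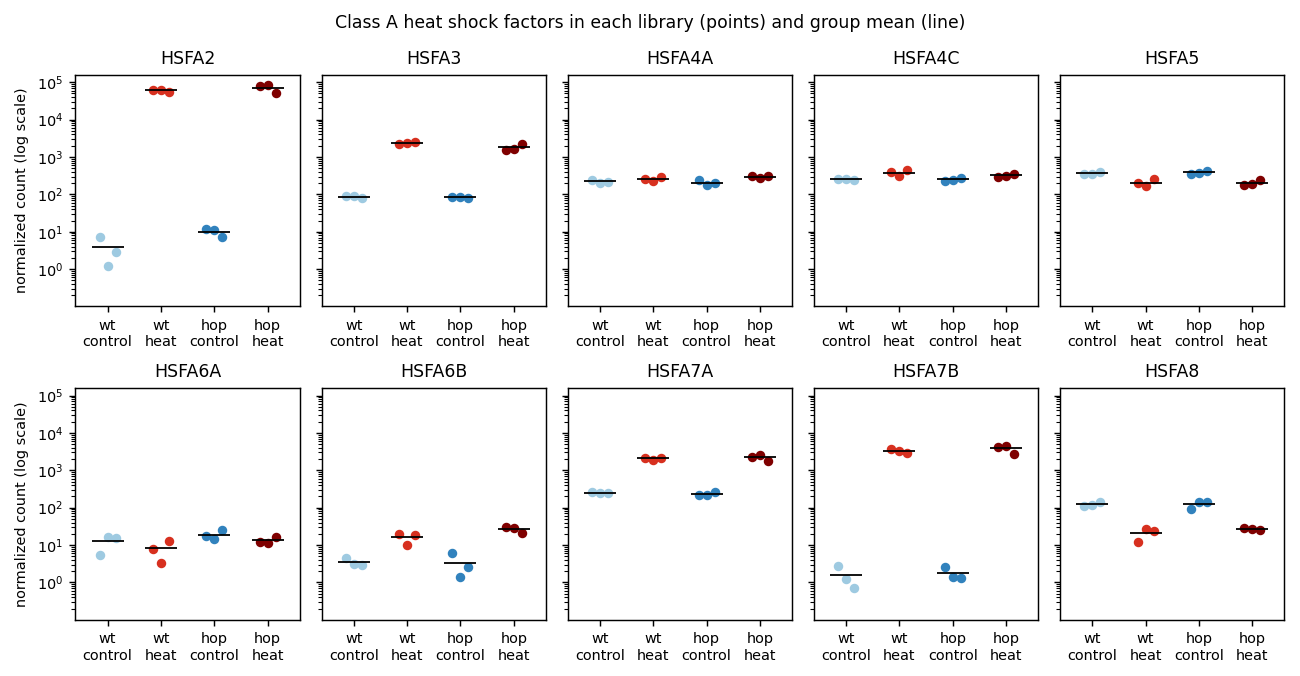
Normalized count (log scale) of each of the 10 genes in every library, as points, with the group mean as a line, for wt and hop at control and under heat. HSFA2, HSFA3, HSFA7A and HSFA7B are far higher in the heat libraries, and HSFA8 is lower.

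**Figure D3:**
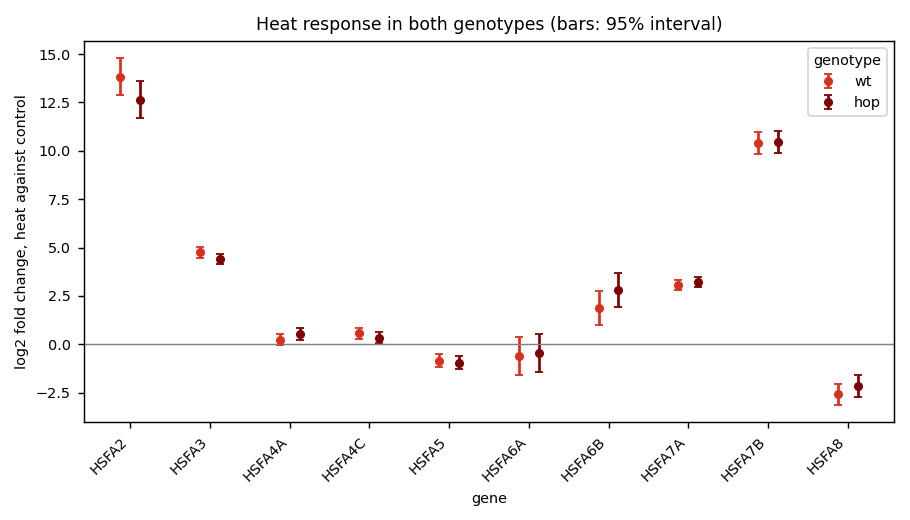
Log2 fold change of heat against control for each gene in wt and hop, with 95% intervals from limma. The values run from 13.84 for HSFA2 to -2.59 for HSFA8, both in wt.

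The order of the levels, per kilobase of annotated exon sequence, was turned over by heat. The length was the union of exons over all annotated transcripts, which can understate the level of a gene with several. HSFA2 and HSFA4C had 4 transcripts each, with a union of 1876 of 2169 bp and of all 2200 bp of the gene. In wt control HSFA7A led with 217 ± 7.33 normalized counts per kb (SD, n = 3), followed by HSFA5 at 195 ± 9.44, HSFA4C at 115 ± 2.34, HSFA4A at 95.04 ± 9.10, HSFA8 at 71.9 ± 7.45, HSFA3 at 38.8 ± 2.76 and HSFA6A at 11.9 ± 5.86. None of these neighbours overlapped. HSFA6B (2.22 ± 0.588), HSFA2 (2.02 ± 1.67) and HSFA7B (1.44 ± 0.972) closed the order. HSFA2 overlapped both HSFA6B and HSFA7B, while HSFA6B lay below HSFA6A without overlap. In wt heat HSFA2 led with 32411 ± 2257 per kb, then HSFA7B with 3047 ± 328, HSFA7A with 1797 ± 134 and HSFA3 with 1059 ± 51.6. HSFA4C followed at 173 ± 31.4, then HSFA4A at 113 ± 13.5 and HSFA5 at 110 ± 22.5, which overlapped, and HSFA8, HSFA6B and HSFA6A, at 12.04, 10.2 and 7.71, overlapped as well.

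In hop the leading 4 under heat came in the same order, HSFA2 (38058 ± 9954 per kb), HSFA7B (3584 ± 884), HSFA7A (1899 ± 331) and HSFA3 (816 ± 189). At control HSFA5 (207 ± 20.3) and HSFA7A (203 ± 22.4) overlapped. The levels of the 10 summed to 750 ± 14.5 per kb in wt control and 38738 ± 2372 in wt heat, and to 751 ± 60.6 and 44782 ± 10919 in hop. HSFA2 made up 0.268% ± 0.220 of that sum in wt control and 83.6% ± 0.929 in wt heat, and 0.733% ± 0.234 and 84.7% ± 1.92 in hop. Of all fragments, the 10 genes took 0.00607% ± 0.000377 at control and 0.172% ± 0.0126 under heat in wt. The hop libraries gave 0.00572% ± 0.000718 and 0.179% ± 0.0301.

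**Figure D4:**
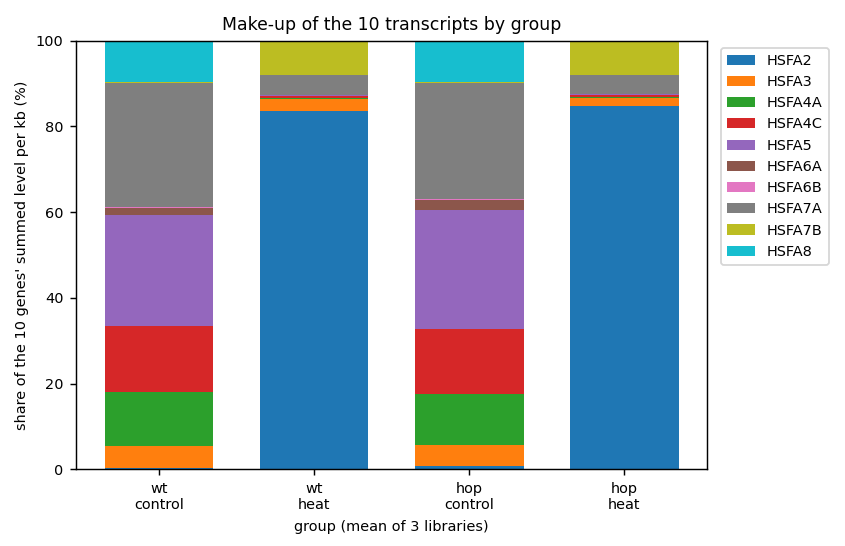
Share of each gene in the summed level per kb of the 10 genes, as the mean of 3 libraries per group. HSFA2 goes from a sliver at control to 83.6% in wt heat and 84.7% in hop heat.

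Between the genotypes none of the 10 was called. At control 0 of 10 passed the test in limma, where 0.831% of all genes did, and 1 of the 10, HSFA2, had an unadjusted p under 0.05, against 10.3% of all genes. Under heat 0 of 10 passed, where 8.62% of all genes did, and 1, HSFA3, had an unadjusted p under 0.05, against 24.2%. The median log2 fold change of the 10 was -0.01 at control and 0.18 under heat, against 0.01 and 0.04 over all genes. edgeR with TMM and DESeq2 called 0 of the 10 in both conditions.

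HSFA2 at control had the largest difference, 10.14 ± 2.61 in hop against 3.798 ± 3.14 in wt (normalized counts, SD, n = 3). The highest wt library (7.30) stood just above the lowest hop library (7.15), so the groups overlapped. The log2 fold change was 1.39 (95% interval 0.44 to 2.35; adjusted p = 0.243, limma), and the ratio by fragments was 2.93 (95% exact interval 1.56 to 5.81, counting error only). Without wt control replicate 1 the gene was called (1.89, adjusted p = 0.0202, limma), while over all alternatives the adjusted p ran from 0.0202 to 0.77. In the authors' deposited table the log2 fold change was 1.21 with an adjusted p of 0.0943. Under heat HSFA2 differed by 0.20 (95% interval -0.76 to 1.15).

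HSFA3 under heat was the other gene near the threshold, with 1803 ± 418 in hop and 2340 ± 114 in wt, or 77.0% of the wt mean. Replicates 1 and 2 of hop lay below every wt library, and replicate 3 lay among them. The log2 fold change was -0.40 (95% interval -0.68 to -0.12; adjusted p = 0.0740, limma). Without hop heat replicate 3 the gene was called lower (-0.58, adjusted p = 0.00467, limma), and over all alternatives the adjusted p ran from 0.00467 to 0.396. That library also held the lowest HSFA2 and HSFA7B counts of its group; the part of this in the result was not tested. In the authors' deposited table the log2 fold change was -0.37 with an adjusted p of 0.0847.

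For the other members the intervals set what could be seen. Under heat HSFA6B had 16.1 ± 5.36 in wt and 26.7 ± 5.31 in hop, and the groups did not overlap, which was true of 25.9% of all genes; the log2 fold change was 0.74 (95% interval -0.14 to 1.61; adjusted p = 0.292, limma). HSFA6A differed by 0.80 (-0.18 to 1.77) and HSFA8 by 0.42 (-0.14 to 0.98). None of these 3 was called under any alternative, and each rests in part on 1 wt heat library. Without wt heat replicate 2 HSFA6B was 0.44 and HSFA6A 0.33, and without wt heat replicate 1 HSFA8 was 0.08; over all sets of libraries left out they ran from 0.37 to 1.03, 0.33 to 1.19 and 0.049 to 0.64. HSFA4A, HSFA4C, HSFA5, HSFA7A and HSFA7B had intervals within -0.51 and 0.78 under heat. The difference of the heat responses, hop minus wt, was called for 0 of 10 genes, where 0.0504% of all genes were, with 0 of the 10 and 9.55% of all genes at an unadjusted p under 0.05; HSFA2 had the largest value, -1.20 (95% interval -2.55 to 0.15; adjusted p = 0.588, limma), and edgeR and DESeq2 also called 0. That value rests on the few control fragments of HSFA2: it was -0.75 without wt control replicate 2, -1.70 without wt control replicate 1 and -0.63 with a pseudocount of 5.

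**Figure D5:**
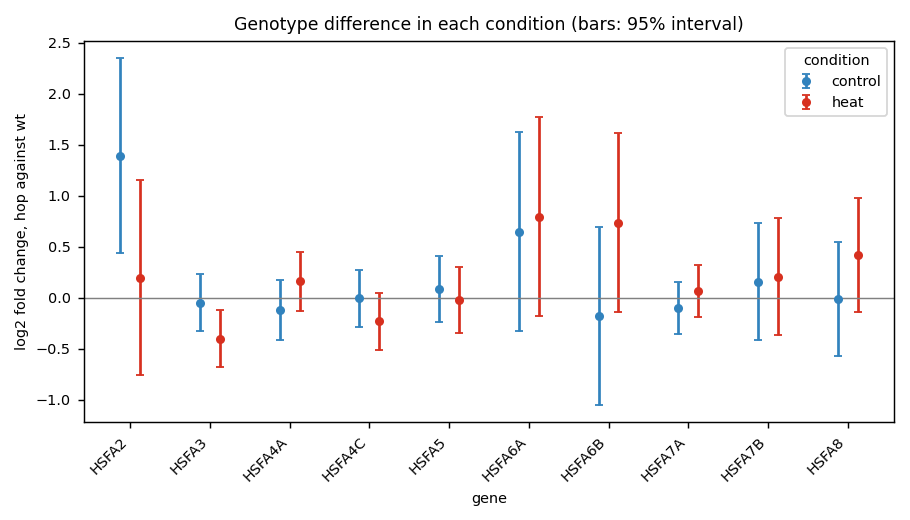
Log2 fold change of hop against wt for each gene at control and under heat, with 95% intervals from limma. The intervals of HSFA2 at control and of HSFA3 under heat leave out 0, but neither passed after adjustment over all genes.

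The other heat shock factors give the setting. Over all genes tested, 33.2% rose and 35.8% fell in wt, and 33.3% rose and 35.2% fell in hop. Of the 4 HSFA1 genes and HSFA9, 2 rose and 1 fell in wt and likewise in hop: HSFA1D by 2.53 and 2.67 on the log2 scale, HSFA1E by 3.20 and 3.80, and HSFA1B by -0.94 and -0.97. HSFA1A (-0.32 and -0.45) and HSFA9, which was near 0 counts, did not pass. HSFA1E was the one factor of this list that was higher in hop under heat (0.53, adjusted p = 0.0390, limma). Of the 6 class B and C factors, which mostly lack an activation domain, 5 rose and 0 fell in wt, and 5 rose and 1 fell in hop. HSFB2B (5.97 in wt, 5.96 in hop), HSFB1 (5.29 and 5.50) and HSFB2A (3.79 and 3.79) led, and HSFB3 was the gene that fell in hop (-1.11). HSFB4 and HSFC1 rose less, with wt means going from 53.8 to 92.9 and from 121 to 184 normalized counts. Before scaling, their summed fragments went from 226 to 199 and from 499 to 394 in wt. In hop they went from 220 to 237 and from 506 to 419. These 2 rises therefore rest on the size factors.

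Of 4 genes known to act before HSFA3, 3 rose and 0 fell in each genotype. DREB2A rose by 4.93 in wt and 5.02 in hop, DREB2B by 3.88 and 3.89 and DREB2C by 3.28 and 2.74, while DPB3-1, a partner of DREB2A, had 0.08 and -0.04 and did not pass. None of the 4 was called between genotypes. Of 8 genes known to act on heat shock factors, 7 rose and 0 fell in each genotype, led by HSP90.1 (11.75 and 11.32), ROF2 (11.71 and 11.46), MBF1C (9.51 and 9.26) and HSP90.2 (6.97 and 7.19). HSP90.1, a chaperone that holds heat shock factors inactive, was higher in hop at control by 0.63 (adjusted p = 0.0218, limma), and JUB1 did not pass in either heat comparison. The rise of HSBP also rests on the size factors. Its summed fragments went from 4124 to 2918 in wt and from 3685 to 3080 in hop.

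Of 11 genes reported as HSFA2 targets, 11 rose in both genotypes, with medians of 13.90 and 13.54, and 0 were called between genotypes in either condition. Over all genes 33.2% rose in wt and 33.3% in hop, and only 0.831% at control and 8.62% under heat were called between genotypes. The largest rises in wt were APX2, a cytosolic ascorbate peroxidase, at 15.40, HSP17.6II at 15.19 and HSP17.6C at 14.76. In wt control these 3 held 1, 22 and 78 fragments, so the value for APX2 depends on the 1 added before the log. Of 7 genes reported around HSFA4A, 4 rose and 2 fell in both genotypes: HSP17.6A (14.22 and 13.91), ZAT12 (3.59 and 3.70), APX1 (2.42 and 2.30) and MPK4 (1.47 and 1.49) rose, MPK3 (-1.36 and -1.48) and WRKY30 (-1.01 and -1.02) fell, and MPK6 (0.01 and 0.13) did not pass. WRKY30 rests on few fragments, 17 in each control group and 3 in each heat group.

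The genes with the pattern most like HSFA2 over the 12 libraries, by the root mean square difference of centred log2 values among 20466 genes, were AT1G07400 (0.44), HSP17.4 (AT3G46230, 0.56) and AT5G59720 (0.64). For HSFA7B they were EGY3 (0.33), HSP70 (AT3G12580, 0.35) and AT5G51440 (0.41). AT1G07400 went from 25.1 ± 18.7 to 406670 ± 43148 normalized counts in wt, and EGY3 (AT1G17870) from 48.5 ± 11.8 to 68730 ± 8189. All of these libraries are split by heat, so a likeness describes these samples and is given with no test.

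Markers of other tissues were looked at beside these results. Of 3 root hair genes, EXPA7 rose and PRP3 fell in both genotypes and COBL9 fell in hop. Of 3 endodermis genes CASP2 fell in both, and of 3 stomatal lineage genes SPCH rose and FAMA fell in both, FAMA being also lower in hop under heat (-0.51, adjusted p = 0.0460, limma). Of 3 green tissue genes none was called in wt, CAB1 rose in hop (0.47) and RBCS1A was higher in hop under heat (0.49). The rise of CAB1 rests on the size factors, since its summed fragments in hop went from 2276462 at control to 1835050 under heat. None of 4 seed storage genes was called in any comparison, and their summed level ran from 15.04 to 622 normalized counts. Whether tissue makeup has a part in the members' values was not tested.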

How the data were processed

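RNA of whole seedlings, 4 groups of 3 replicates, went into stranded mRNA libraries, per the labels' protocols. The submitters' processing notes list DESeq2 1.1.14, HTSeq and TopHat2 2.1.0 with no role. Genome build and annotation: not given in the sources used here. A single table was deposited by the authors, and its signal is normalized fragments per gene, per the file headers. Log2 fold changes and adjusted p-values of the authors' own comparisons were deposited beside them and are quoted only by that name. The values were whole multiples of 1 fragment in 100% of cases (tolerance 0.01), which gave back the depth.

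limma 3.58.1 (trend, robust; R 4.3.3) was fitted to log2(value + 1) of all 12 libraries with 4 group means; genes with at least 1 in at least 3 libraries, 23827, were tested and taken as called where the Benjamini-Hochberg adjusted p was under 0.05. There were 5 comparisons. edgeR 4.0.16 and DESeq2 1.42.0 on the recovered counts called 16197 and 15702 genes in wt heat, against 16435 in limma. On simulated data limma recovered 89 of 100 genes changed 2-fold in wt heat and 88 of 100 in hop against wt under heat (23498 and 23508 genes). At 4-fold it recovered 99 of 100 in each. Unchanged genes called in the same simulations numbered 13 and 27. The simulated counts had the same dispersion for every gene and no replicate effect, and the changed genes were drawn above a minimum wt control level. HSFA2, HSFA6B and HSFA7B lay below it (means of 3.80, 3.50 and 1.56), so the recovery does not cover them. The spread of the members themselves was not simulated. Recovery at the members' own levels under heat was not tested. Those levels can lie far from control: wt means went from 124 to 20.7 for HSFA8 and from 3.80 to 60802 for HSFA2.

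Gene lengths and promoters came from RefSeq TAIR10.1, where 10 of 10 members matched. The promoter window was first drawn to include the start of the gene and was changed to 300 bases before it, after a first look at the matches, to print no transcribed sequence. The members and gene lists were chosen with earlier results of these data known. All 10 members are named, with HOP1, HOP2 and HOP3, up to 4 called genes of the largest change per list of factors, regulators or targets, every gene of such a list of 5 or fewer, and the 3 genes nearest in pattern to HSFA2 and HSFA7B. HSFB3, HSFB4, HSFC1, HSBP, JUB1, MPK3, MPK6, WRKY30 and the tissue markers named lie outside this rule and were chosen after their values were seen. Same-numbered control libraries of both genotypes deviated together, each with a correlation over the 0.1 set for pairing (0.31, 0.18 and 0.17). Under heat all 3 were positive and above those of unlike numbers, but 1 missed 0.1 (0.06, 0.10 and 0.18).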

Additional observations from a re-analysis of the deposited data

How the results depend on the processing

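Results were recomputed under 23 alternatives, except that DESeq2 gave no adjusted p for HSFA6B in the difference of responses and that value was left out; 1 set, leaving out the 4 libraries that share a number, was chosen after seeing the data. Beside the 50 values of single genes and comparisons, 1088 alternative values kept direction and side of the threshold, 7 lost and 6 gained a call with the sign kept, and 48 changed sign. Among the 48, scaled by library size alone, HSFA4C in wt heat also lost its call (adjusted p = 0.197, edgeR). HSFA4A in wt heat gained a call there (adjusted p = 0.00389, edgeR). Apart from HSFA4A and HSFA4C with scaling by library size alone, no value that changed sign was called before or after. Under that scaling their log2 fold changes under heat became -0.61 (HSFA4A) and -0.28 (HSFA4C) in wt and -0.39 and -0.58 in hop. The same scaling moved HSFA7A in hop against wt under heat to -0.076 and HSFA7B in the difference of responses to -0.034. In edgeR with TMM HSFA4C at control was 0.0020, HSFA8 at control 0.019 and HSFA7B in the difference -0.0058; HSFA8 at control was 0.016 in DESeq2, and HSFA7B in the difference was -0.0036 with a pseudocount of 0.5.

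Leaving out libraries, hop against wt at control ran from -0.086 to 0.048 for HSFA4C, -0.59 to 0.17 for HSFA6B, -0.094 to 0.47 for HSFA7B and -0.13 to 0.19 for HSFA8. Under heat it ran from -0.16 to 0.13 for HSFA5 and -0.12 to 0.24 for HSFA7A. The difference of responses ran from -0.24 to 0.047 for HSFA5, -0.63 to 0.69 for HSFA6A, -0.042 to 0.43 for HSFA7A, -0.26 to 0.32 for HSFA7B and -0.088 to 0.77 for HSFA8. HSFA6A in wt heat ran from -1.13 to 0.11. Leaving out libraries, members called numbered 8 to 9 in each heat comparison, 0 to 1 between genotypes in each condition and 0 to 0 for the difference. Over all genes the calls ran from 14525 to 16645 in wt heat, 14463 to 16444 in hop heat, 16 to 213 at control, 251 to 2321 under heat and 1 to 94 for the difference.

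Genes called at control numbered 198 in limma, 305 in edgeR with TMM and 448 in DESeq2. Under heat the 2053 became 1251 by library size alone, and the share that was higher went from 43.3% to 16.7%, while at control it went from 41.4% to 20.5%. For the difference the 12 became 34 in edgeR, 182 in DESeq2, 5 by library size alone and 34 with the replicate block. Scaled by library size alone, 5 members were called higher and 4 lower in wt heat and 5 and 5 in hop heat, against 6 and 2 and 7 and 2. The replicate block changed the call of no member. The cause of these changes was not tested.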

Other observations

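For 6 of the 10 genes the replicate numbered 3 was the extreme one of the heat libraries, in the same direction in both genotypes, which was noticed after the values were seen. The share of all genes that did the same was not counted, so 6 of 10 cannot be called unusual. Over all genes tested, the wt and hop heat libraries numbered 3 deviated from their group means together (correlation 0.18). HSFA2 was lowest there, at 55914 in wt and 49930 in hop, and so was HSFA7B, at 2922 and 2792. HSFA3 was highest, at 2455 and 2283, as were HSFA4C (440 and 353), HSFA5 (253 and 245) and HSFA6A (13.2 and 16.5). The other 4 did not share it. HSFA7A was highest there in wt (2196) and lowest in hop (1816). In both genotypes HSFA4A was lowest in heat replicate 2 (233 in wt and 267 in hop). HSFA6B was highest in heat replicate 1 in both (19.8 and 30.5), and HSFA8 had no common extreme. The hop heat library numbered 3 was also the deepest, at 38.7 M fragments, while the wt one held 27.8 M. The part of depth or of a shared batch in these values was not tested.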
